A study of Mus musculus with 7 samples.

Results

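A group of 10 genes that mark the endothelial cells of brain vessels was followed in bulk RNA-seq of the cerebral cortex of mice with and without the creatine transporter. The genes were *Cldn5*, *Pecam1*, *Cdh5*, *Tek*, *Kdr*, *Flt1*, *Eng*, *Vwf*, *Abcb1a* and *Slco1a4*. They were chosen by name, as junction, receptor and identity genes of brain endothelium, with earlier results of these data known. All 10 were found among the 24346 genes of the expression table. CrT-/y animals were 4 males hemizygous for a deletion within *Slc6a8*, the X-linked gene of the creatine transporter, and CrT+/y animals were 3 wild-type males. All 7 were on a C57BL/6J background and were taken at postnatal day 100, and each gave 1 library of cortical RNA. The deletion is present in the whole body, so endothelial cells, neurons and glia all lacked the intact transporter, and effects within the vessel wall cannot be told apart from effects of the surrounding tissue. The study describes the animals as littermates, but the labels do not say which of them shared a litter.

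Endothelial cells line the vessels and, in the brain, are sealed to one another by tight junctions that form the blood-brain barrier. Nutrients therefore cross through transporters in these cells, and creatine is among the compounds that enter the brain this way. Growth and upkeep of the layer are controlled by receptors for VEGF, angiopoietins and members of the TGF-beta family, several of which are expressed almost exclusively by endothelial cells.

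Values are FPKM, fragments scaled to exon length and to the mapped fragments of the library, so that levels of different genes can be compared per length. For each gene, 0.1 FPKM was added, the value was put on the log2 scale and the genotypes were compared with limma over the 12988 genes that averaged 1 FPKM or more. Fold changes are CrT-/y minus CrT+/y on that scale, and a gene was called lower or higher at an adjusted p under 0.1. Between 17207 and 17821 genes were above 0 FPKM in each library. *Slc6a8* itself was at 12.4, 14.9, 14.7 and 15.7 FPKM in CrT-/y replicates 0 to 3 and at 32.3, 29.6 and 28.0 FPKM in CrT+/y replicates 1 to 3, so that every library followed its label. In the CrT-/y animals, this value also counts fragments from the exons that were not deleted.

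Promoters from RefSeq (GRCm38.p6), 250 bases before to 50 bases after the start of the gene, matched 7 of the 10 genes, all but *Pecam1*, *Cdh5* and *Vwf*. Shown here are the promoters of *Flt1* and *Eng*, both lower in CrT-/y animals, of *Kdr*, a receptor related to *Flt1* that did not pass the test, and of *Slco1a4*, with a fold change above 0. Letters of a searched motif are in capitals, and every sequence reads along the strand of its gene. The motifs were CAGGAA and CCGGAA for ETS factors, AACAAT for SOX factors, GTAAACA for FOX factors and ATCAAAG for TCF/LEF factors, each on both strands. Both ETS motifs share the letters GGAA.
Flt1, chr5:147725962-147726261, minus strand: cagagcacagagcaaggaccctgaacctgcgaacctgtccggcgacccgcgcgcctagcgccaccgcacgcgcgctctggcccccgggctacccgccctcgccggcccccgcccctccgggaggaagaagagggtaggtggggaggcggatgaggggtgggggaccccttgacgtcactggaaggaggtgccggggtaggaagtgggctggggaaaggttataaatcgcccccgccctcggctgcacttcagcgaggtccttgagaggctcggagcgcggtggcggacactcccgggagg
Eng, chr2:32646345-32646644, plus strand: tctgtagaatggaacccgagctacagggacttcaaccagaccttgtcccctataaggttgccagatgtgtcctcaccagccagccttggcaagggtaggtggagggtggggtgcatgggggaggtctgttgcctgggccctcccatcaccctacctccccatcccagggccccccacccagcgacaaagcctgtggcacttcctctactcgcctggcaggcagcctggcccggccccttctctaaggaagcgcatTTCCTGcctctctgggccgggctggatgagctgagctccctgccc
Kdr, chr5:75978406-75978705, minus strand: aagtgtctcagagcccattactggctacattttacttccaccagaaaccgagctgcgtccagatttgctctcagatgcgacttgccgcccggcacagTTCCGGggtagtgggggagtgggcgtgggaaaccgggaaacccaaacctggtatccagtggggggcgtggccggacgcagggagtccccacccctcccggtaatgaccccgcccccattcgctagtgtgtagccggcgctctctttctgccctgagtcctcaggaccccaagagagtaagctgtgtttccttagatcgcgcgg
Slco1a4, chr6:141856171-141856470, minus strand: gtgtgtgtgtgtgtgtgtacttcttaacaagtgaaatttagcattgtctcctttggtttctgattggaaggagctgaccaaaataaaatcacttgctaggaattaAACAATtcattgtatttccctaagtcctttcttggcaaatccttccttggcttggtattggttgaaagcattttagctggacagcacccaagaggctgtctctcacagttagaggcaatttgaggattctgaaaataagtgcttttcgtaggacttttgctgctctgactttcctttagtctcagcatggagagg

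None of the 5 motifs matched in the *Flt1* window, although the letters GGAA alone do occur in it. In *Eng*, CAGGAA was read on the opposite strand (TTCCTG) 5 bases past the start. *Tek* also held it, as did 30.6% of all 32851 promoters of this length. In *Kdr*, CCGGAA was read on the opposite strand 153 bases before the start, a motif held by 14.9% of all promoters. The *Slco1a4* window held AACAAT 145 bases before the start, and *Tek* held it as well, beside 10.7% of all promoters. *Abcb1a* held GTAAACA (3.65% of all promoters), but its window, chr5:8566841-8567140, follows a RefSeq start and does not reach the start that GENCODE M21 gives, at base 8660077. The other windows hold the GENCODE start. For TCF/LEF factors, ATCAAAG, in 3.73% of all promoters, was in none of the 7 windows. These matches are letters in a window and were not tested as binding sites.

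Over the 7 animals, *Cldn5*, the claudin that seals brain endothelial junctions, was the most abundant of the 10 genes, at a mean of 32.1 FPKM. It was followed by *Slco1a4* (15.0 FPKM), *Flt1* (12.9), *Abcb1a* (10.4), *Eng* (9.60) and *Pecam1* (7.07). *Vwf* (5.43), *Cdh5* (5.11), *Kdr* (4.52) and *Tek* (4.31) had the lowest means. This order pools the genotypes, and 3 pairs of neighbours changed places between them. In CrT+/y animals, mean *Flt1* (15.1 FPKM) was above *Slco1a4* (14.1), *Eng* (10.9) above *Abcb1a* (10.7) and *Cdh5* (5.60) above *Vwf* (5.50 FPKM). In CrT-/y animals, each of these means was below (11.3 against 15.7, 8.63 against 10.1 and 4.74 against 5.38 FPKM). Of neighbours in this order, the ranges over animals were apart only for *Cldn5* and *Slco1a4*. Within animals, however, *Flt1* was above *Abcb1a*, *Eng* above *Pecam1* and *Pecam1* above *Vwf* in 7 of 7. The spread between animals also differed between genes. The highest animal was 1.77-fold above the lowest for *Kdr* and 1.64-fold for *Cldn5*, against 1.17-fold for *Abcb1a* and 1.23-fold for *Slco1a4*.

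**Figure D1:**
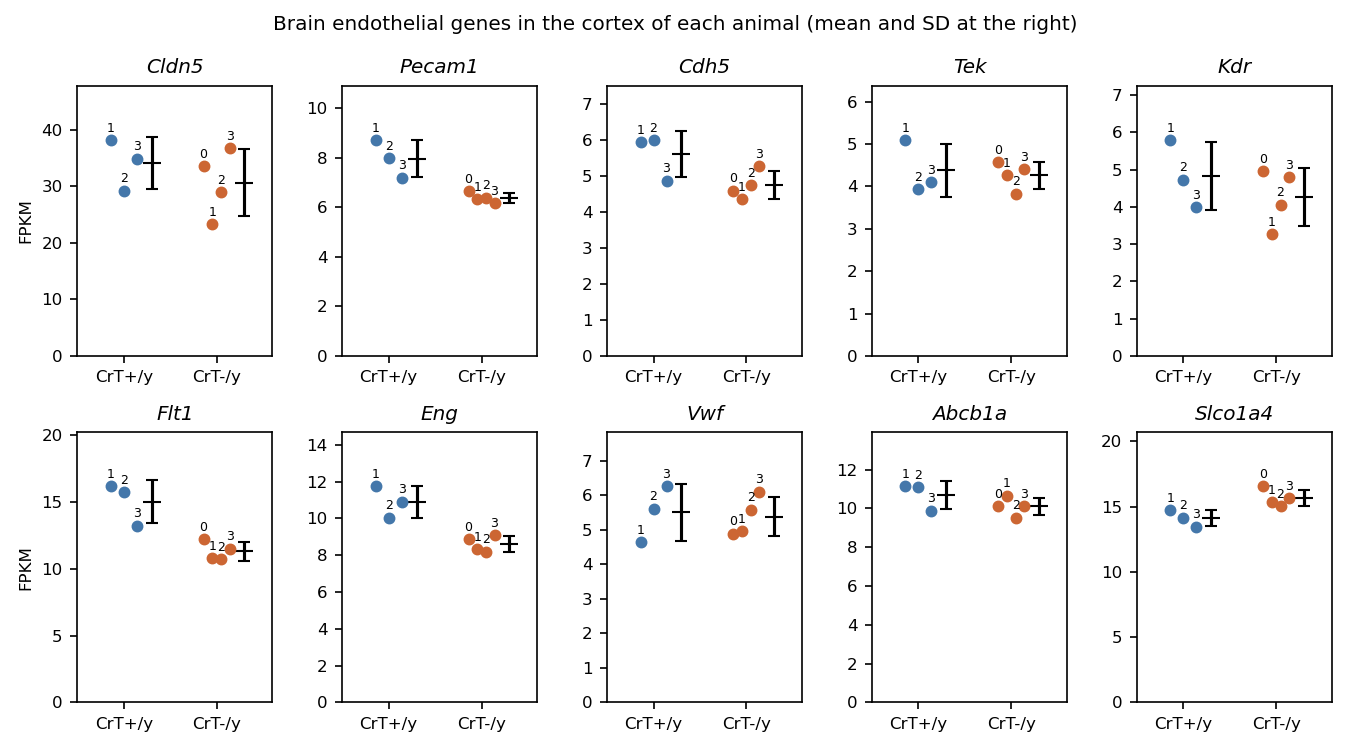
FPKM (linear axis from 0) of the 10 brain endothelial genes in each animal, CrT+/y in blue and CrT-/y in orange, with replicate numbers beside the points and the mean and SD at the right of each group. *Pecam1*, *Flt1* and *Eng* of the 4 CrT-/y animals lie below those of all CrT+/y animals, *Slco1a4* lies above, and the groups overlap for the other 6 genes.

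Of the 10 genes, 3 were lower in CrT-/y animals, *Pecam1*, *Flt1* and *Eng*, and 0 were higher with limma. Across all tested genes, 7.25% were lower and 2.90% higher, so that higher genes made up 28.6% of all calls (61.5% under upper quartile scaling). By unadjusted p under 0.05, which 25.0% of all tested genes had, *Cdh5* and *Slco1a4* were added to these. Of the 10 fold changes, 9 were below 0, as were 58.2% of all tested genes, and their median was -0.17 against -0.03 over all tested genes. For *Tek* and *Vwf* the direction flipped under upper quartile scaling and under median centring, while the other 8 kept theirs under each scaling tried. Groups did not overlap for 4 genes (21.6% of all tested genes), with 3 CrT-/y below CrT+/y (15.0%) and 1 above (6.57%). Because the 10 genes were chosen with earlier results known, these shares are a description and not a test of the group. Fewer endothelial cells and less RNA per endothelial cell cannot be told apart in bulk tissue. The p-values measure the spread between these 7 mice, and each of the 3 calls was lost in some fits with 1 mouse left out, as given for each gene. The adjusted p also depends on all tested genes. Leaving out CrT-/y replicate 1 took calls over all genes from 1318 to 64, and leaving out CrT+/y replicate 3 took them to 3736. The fold change of *Pecam1* stayed at -0.31 in the first of these fits, and was -0.24 once CrT+/y replicate 1 was removed. How much of each loss came from the value of the mouse left out was not tested.

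Among the junction and adhesion genes, *Pecam1* was lower and *Cldn5* and *Cdh5* did not pass the test. *Pecam1*, an adhesion molecule at contacts between endothelial cells, was at 6.65, 6.34, 6.40 and 6.18 FPKM in CrT-/y replicates 0 to 3 and at 8.73, 7.99 and 7.21 FPKM in CrT+/y replicates 1 to 3. All 4 CrT-/y animals were thus below the lowest CrT+/y animal, and they lay closer together than the CrT+/y animals. The mean was 6.39 ± 0.193 FPKM (SD, n = 4) against 7.97 ± 0.759 FPKM (SD, n = 3), which is 80.1% of the CrT+/y mean. The gene lies at chr11:106654217-106750628 on the minus strand (GRCm38, GENCODE M21), and its FPKM covers its exons. The fold change was -0.31 (SE 0.079, limma adjusted p = 0.062). This call was the least stable of the 3. It was lost with any animal left out except CrT+/y replicate 3, with limma adjusted p of 0.106, 0.162, 0.150 and 0.138 without CrT-/y replicates 0 to 3 and of 0.171 and 0.117 without CrT+/y replicates 1 and 2. With no filter on low values it was 0.101. The fold change stayed between -0.38 and -0.24.

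*Cldn5* measured 33.6, 23.3, 28.9 and 36.8 FPKM in CrT-/y mice and 38.2, 29.2 and 34.9 FPKM in CrT+/y mice. The groups overlapped, with the lowest value in CrT-/y replicate 1 and the highest in CrT+/y replicate 1. Its fold change of -0.16 had a 95% interval from -0.50 to 0.17 (limma adjusted p = 0.52). This interval holds the fold change of *Pecam1*, so a decrease of that size in *Cldn5* was not excluded with these animals. *Cdh5*, VE-cadherin of the adherens junction, measured 4.59, 4.35, 4.73 and 5.27 FPKM in CrT-/y mice and 5.93, 6.00 and 4.87 FPKM in CrT+/y mice. CrT-/y replicate 3 was above CrT+/y replicate 3, and the other CrT-/y animals were below all CrT+/y animals. The fold change was -0.23 (95% interval -0.46 to -0.0050, limma adjusted p = 0.19). Without CrT+/y replicate 3 it was -0.33 and passed the test (limma adjusted p = 0.044).

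The 4 receptors split evenly between *Flt1* and *Eng*, which were lower, and *Kdr* and *Tek*, which did not pass the test. *Flt1* (chr5:147561604-147726011, minus strand) encodes VEGFR1, a receptor that binds VEGF tightly and, in its soluble form, takes it up as a decoy. It measured 12.2, 10.8, 10.7 and 11.5 FPKM in CrT-/y mice and 16.2, 15.7 and 13.2 FPKM in CrT+/y mice. The groups did not overlap, and the nearest animals were CrT-/y replicate 0 and CrT+/y replicate 3. The mean was 11.3 ± 0.714 FPKM (SD, n = 4) against 15.1 ± 1.58 FPKM (SD, n = 3), or 75.2%. Its fold change of -0.40 (SE 0.084, limma adjusted p = 0.042) was the lowest of the 10. The call was lost without CrT-/y replicate 1 (limma adjusted p = 0.131), CrT-/y replicate 2 (0.116) or CrT+/y replicate 1 (0.129). The FPKM sums all transcripts of the gene, so soluble and membrane forms were not separated.

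*Eng* (chr2:32646595-32682669, plus strand) encodes endoglin, a coreceptor for BMP and TGF-beta ligands. Values were 8.86, 8.35, 8.20 and 9.10 FPKM in CrT-/y mice and 11.7, 10.04 and 10.9 FPKM in CrT+/y mice. Again no CrT-/y animal reached the lowest CrT+/y animal, which here was replicate 2. The mean was 8.63 ± 0.424 FPKM (SD, n = 4) against 10.9 ± 0.848 FPKM (SD, n = 3), or 79.2%, with a fold change of -0.33 (SE 0.074, limma adjusted p = 0.050). Leaving out CrT-/y replicate 1 (limma adjusted p = 0.145), CrT-/y replicate 2 (0.133) or CrT+/y replicate 1 (0.138) ended this call too.

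*Kdr*, VEGFR2, the main signalling receptor for VEGF in endothelial cells, measured 4.97, 3.27, 4.06 and 4.80 FPKM in CrT-/y mice and 5.80, 4.73 and 3.99 FPKM in CrT+/y mice. The groups overlapped in part, with CrT-/y replicate 1 below and CrT+/y replicate 1 above all animals of the other genotype. The fold change was -0.18 (95% interval -0.55 to 0.20, limma adjusted p = 0.54), an interval that also holds the value of *Flt1*. Accordingly, the FPKM ratio of *Flt1* to *Kdr* overlapped between genotypes, at 2.47, 3.30, 2.64 and 2.40 in the CrT-/y animals and 2.79, 3.32 and 3.32 in the CrT+/y animals. *Tek*, the angiopoietin receptor TIE2, measured 4.58, 4.26, 3.83 and 4.40 FPKM in CrT-/y mice and 5.09, 3.93 and 4.10 FPKM in CrT+/y mice. Only CrT+/y replicate 1 was above the CrT-/y animals, and the fold change was -0.03 (95% interval -0.28 to 0.22, limma adjusted p = 0.89).

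The secreted and transporter genes included no call. *Vwf*, the clotting factor stored in endothelial granules, measured 4.89, 4.96, 5.58 and 6.10 FPKM in CrT-/y mice and 4.64, 5.61 and 6.25 FPKM in CrT+/y mice. Here CrT+/y replicate 1, the highest animal for 7 of the 10 genes, was the lowest of all 7. The fold change was -0.03 (95% interval -0.29 to 0.24, limma adjusted p = 0.91). *Abcb1a*, the efflux pump P-glycoprotein, measured 10.1, 10.7, 9.53 and 10.1 FPKM in CrT-/y mice and 11.1, 11.1 and 9.89 FPKM in CrT+/y mice. The groups overlapped, and the fold change of -0.08 had a narrow 95% interval, from -0.24 to 0.08 (limma adjusted p = 0.50).

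*Slco1a4*, an organic anion transporter of the blood-brain barrier, went the other way. It measured 16.5, 15.4, 15.1 and 15.7 FPKM in CrT-/y mice and 14.7, 14.2 and 13.5 FPKM in CrT+/y mice. All CrT-/y animals were above all CrT+/y animals, by a small margin between CrT-/y replicate 2 and CrT+/y replicate 1. The mean was 15.7 ± 0.641 FPKM (SD, n = 4) against 14.1 ± 0.627 FPKM (SD, n = 3). The fold change of 0.15 (95% interval 0.014 to 0.28) did not pass the test (limma adjusted p = 0.17) and did so under upper quartile scaling (fold change 0.21, limma adjusted p = 0.078). *Abcb1a* and *Slco1a4* each have close relatives in the genome. The authors state that uniquely aligned reads were kept, and how reads shared with those relatives entered both values was not tested.

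**Figure D2:**
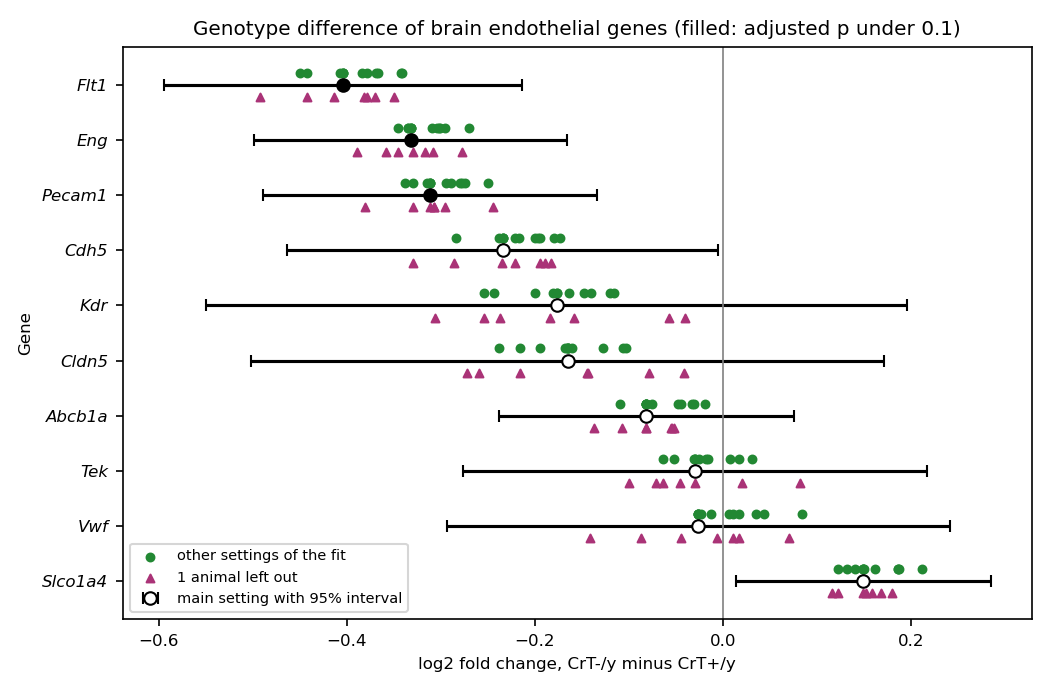
Fold change (log2 scale, CrT-/y minus CrT+/y) of each gene with its 95% interval, filled where the limma adjusted p was under 0.1. Green points are other settings of the fit and purple triangles leave out 1 animal each. All points of *Flt1*, *Eng* and *Pecam1* lie below 0 and all of *Slco1a4* above, while *Tek* and *Vwf* have points on both sides.

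The animals differed from each other across several of the genes at once. On the log2 scale, CrT+/y replicate 1 was above the mean of the gene for 8 of 10 genes, CrT+/y replicate 2 for 7 and CrT+/y replicate 3 for 5. CrT-/y replicates 0 to 3 were above it for 4, 2, 2 and 6 genes. CrT-/y replicate 3 was thus more often above the mean than CrT+/y replicate 3. CrT-/y replicate 1 had the lowest *Cldn5* (0.44 below its mean), *Kdr* (0.43 below) and *Cdh5* (0.22 below), but it was 0.04 above the mean for both transporters. Summed over the 10 genes, the levels were between 91.7 and 109.9 FPKM in CrT-/y animals and between 108.5 and 122.1 FPKM in CrT+/y animals, and these ranges overlapped. Sums of the 4 receptors were apart (26.7 to 30.6 against 32.2 to 38.8 FPKM). Of these 4, groups were apart for *Flt1* and *Eng* and overlapped for *Kdr* and *Tek*. Sums of the 3 junction genes (34.0 to 48.2 against 43.2 to 52.8 FPKM) and of the 3 identity genes (30.2 to 31.9 against 29.6 to 30.9 FPKM) overlapped.

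**Figure D3:**
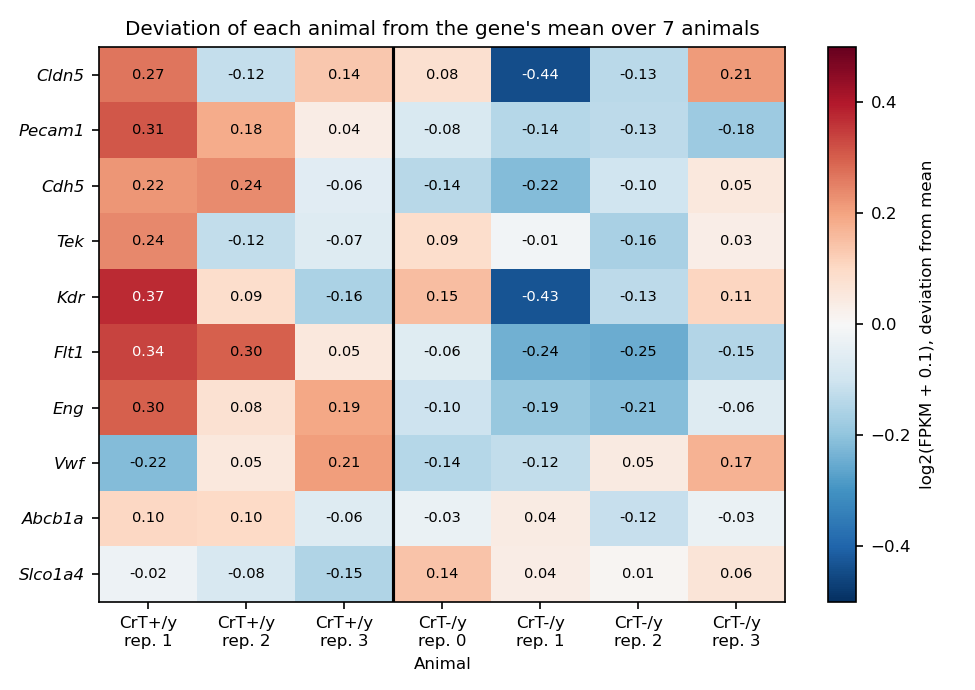
Deviation of each animal from the mean of the gene over 7 animals, in log2(FPKM + 0.1), with animals in columns and genes in rows (red above, blue below the mean). The rows of *Pecam1*, *Flt1* and *Eng* change sign at the line between genotypes, and that of *Slco1a4* does so the other way. *Cldn5* and *Kdr* are lowest in CrT-/y replicate 1, at -0.44 and -0.43.

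To ask whether the composition of the endothelial signal differed, each of the other 9 genes was set against *Cldn5* of the same animal. None of the 9 ratios passed the exact permutation test between genotypes over the 35 splits of the animals, which cannot give a two-sided p under 0.0286. After adjustment over the 9 ratios, a single ratio at that p would not pass 0.1. The test could therefore not call a difference confined to 1 ratio, and no conclusion on the composition was drawn from it. *Flt1* was at 36.5%, 46.3%, 37.1% and 31.3% of *Cldn5* in CrT-/y mice, compared with 42.4%, 53.9% and 38.0% in CrT+/y mice. The ranges overlapped, and the log2 ratio differed by -0.24 (exact permutation p = 0.257, Benjamini-Hochberg adjusted over the 9 ratios 0.804). *Slco1a4* was at 49.3%, 65.8%, 52.0% and 42.6% of *Cldn5* in CrT-/y mice, compared with 38.5%, 48.5% and 38.6% in CrT+/y mice, a log2 difference of 0.31 (exact permutation p = 0.143, adjusted 0.804). This was the smallest p of the 9. *Eng* (-0.17, exact permutation p = 0.286) and *Pecam1* (-0.15, exact permutation p = 0.429) did not pass this test either. *Kdr* had the difference closest to 0 (-0.01, exact permutation p = 0.914), at 14.8%, 14.03%, 14.04% and 13.0% of *Cldn5* in CrT-/y mice and 15.2%, 16.2% and 11.4% in CrT+/y mice. All 9 ratios carry the spread of *Cldn5*, the denominator.

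The other genes of the pathways in which these receptors work were taken from lists. Of 101 further endothelial and pathway genes, 87 were tested. With limma, 7 were lower and 2 higher, and the median fold change was -0.09. CrT-/y animals were all below CrT+/y animals for 15 of them and all above for 4. Across all tested genes, the matching shares were 7.25%, 2.90%, 15.0% and 6.57%. The lists were chosen with earlier results of these data known, so setting the counts beside these shares describes them and is not a test. Several of the listed genes, such as *Vegfa*, *Vegfb* and *Hey1*, are also expressed by neurons or glia.

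Of the ligands and other receptors of the VEGF, angiopoietin and apelin pathways, 9 of 13 were tested, 2 were lower and 1 was higher. *Pgf*, *Flt4*, *Angpt2* and *Aplnr* were under a mean of 1 FPKM. *Apln*, the peptide ligand apelin made by endothelial tip cells and neurons, measured 6.92, 5.90, 5.73 and 7.04 FPKM in CrT-/y mice and 14.1, 12.6 and 11.9 FPKM in CrT+/y mice. Its fold change of -0.996 (SE 0.097, limma adjusted p = 0.0049) kept its call with each animal left out. *Vegfb*, a ligand of VEGFR1, was at 42.2, 41.5, 41.0 and 42.5 FPKM against 52.0, 48.3 and 45.6 FPKM, a fold change of -0.22 (limma adjusted p = 0.067). *Angpt1*, a TIE2 ligand, was the one that rose, from 1.56, 1.95 and 1.74 FPKM in the CrT+/y animals to 2.49, 2.06, 2.56 and 2.51 FPKM in the CrT-/y animals (fold change 0.44, limma adjusted p = 0.086). Groups were apart for all 3 of these genes. They were also apart for the sum of the 13 (96.6 to 103.4 FPKM in CrT-/y animals, 109.4 to 123.2 FPKM in CrT+/y animals). *Vegfb* kept its call only without CrT+/y replicate 3 and *Angpt1* only without CrT+/y replicate 2 or 3, with limma adjusted p up to 0.174 and 0.218 when another animal was left out. *Vegfb* also lost its call under quantile normalization (limma adjusted p = 0.126), upper quartile scaling (0.121), median centring (0.113) and moderation without a trend (0.108), and *Angpt1* with no filter (0.134) and with array weights (0.105).

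None of the 14 genes of the TGF-beta and BMP pathway served by endoglin passed the test with limma. Their median fold change was -0.00071, but single fold changes lay between -0.23 and 0.55, with 8 below 0 and 6 above. *Bmpr2*, a type II BMP receptor and the most abundant of them, measured 41.6, 39.9, 40.2 and 41.0 FPKM in CrT-/y mice and 47.7, 47.8 and 42.3 FPKM in CrT+/y mice. Its groups were apart, and its fold change of -0.17 missed the threshold (limma adjusted p = 0.12). Among the 9 other junction genes tested, 0 passed with limma, 8 had a fold change below 0, and the median was -0.14. *Tjp1*, the scaffold protein ZO-1, had the highest level and a fold change of -0.22 (limma adjusted p = 0.26).

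Of the other blood-brain barrier transporters, 13 of 14 were tested and 1 was lower. *Abcc4*, an efflux pump for organic anions, measured 2.74, 2.98, 2.70 and 2.87 FPKM in CrT-/y mice and 3.28, 3.96 and 3.46 FPKM in CrT+/y mice (fold change -0.32, limma adjusted p = 0.095). This call held only without CrT+/y replicate 3 among the fits with 1 animal left out, with limma adjusted p up to 0.216 in the others. It also ended under upper quartile scaling (limma adjusted p = 0.163), median centring (0.132), the length correction (0.144) and with no filter (0.146). *Slc3a2*, the heavy chain of the large amino acid transporter, had the highest level, with a fold change of 0.08 (limma adjusted p = 0.35). The median of the transporters was -0.04, close to that of all genes.

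Of 10 endothelial transcription factors tested, *Sox18* was lower and 9 did not pass. *Sox18*, a factor of arterial and lymphatic endothelial development, measured 6.25, 6.01, 5.79 and 5.26 FPKM in CrT-/y mice and 8.77, 8.60 and 7.61 FPKM in CrT+/y mice. No CrT-/y value reached the lowest CrT+/y value, and the fold change was -0.51 (SE 0.085, limma adjusted p = 0.028). Its call was lost only without CrT-/y replicate 1, at a limma adjusted p of 0.104. *Klf2*, induced by blood flow, was the most abundant factor, and its fold change was 0.17 (limma adjusted p = 0.56).

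Among 15 further endothelial genes, 3 were lower, 0 were higher and the median was -0.13. *Podxl*, the sialomucin podocalyxin of the lumenal surface, measured 9.08, 8.95, 8.76 and 9.95 FPKM in CrT-/y mice and 13.3, 11.6 and 12.3 FPKM in CrT+/y mice (fold change -0.43, limma adjusted p = 0.029). *Adgrl4*, an adhesion G protein-coupled receptor of endothelial cells, was at 7.60, 6.06, 6.06 and 6.08 FPKM against 9.61, 10.8 and 8.47 FPKM (fold change -0.57, limma adjusted p = 0.036). *Ly6c1*, a surface protein of endothelial cells, was at 43.1, 40.0, 41.3 and 38.6 FPKM against 48.4, 44.8 and 62.1 FPKM (fold change -0.33, limma adjusted p = 0.098). In all 3, the CrT-/y animals were below the CrT+/y animals. Among the fits with 1 animal left out, *Podxl* lost its call only without CrT-/y replicate 1 (limma adjusted p = 0.113). *Adgrl4* lost it without CrT-/y replicate 1 (0.120), CrT-/y replicate 2 (0.104) or CrT+/y replicate 1 (0.105). *Ly6c1* kept it only without CrT+/y replicate 2 or 3, with limma adjusted p up to 0.219 otherwise, and lost it under quantile normalization (0.152), upper quartile scaling (0.154), median centring (0.144), moderation without a trend (0.141) and with no filter (0.153).

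Arterial genes included 1 higher gene of 6 tested. *Efnb2*, the arterial ephrin that is also expressed by neurons, measured 18.4, 20.6, 19.6 and 20.0 FPKM in CrT-/y mice and 16.2, 17.3 and 15.9 FPKM in CrT+/y mice (fold change 0.26, limma adjusted p = 0.056). The call was lost without CrT-/y replicate 1 (limma adjusted p = 0.156), 2 (0.142) or 3 (0.131) or CrT+/y replicate 1 (0.142). *Hey1*, the arterial gene of highest level, had a fold change of -0.09 (limma adjusted p = 0.42). None of the 3 venous or activated genes tested passed, and *Vcam1*, an adhesion molecule for leukocytes, had the highest level among them and a fold change of 0.10 (limma adjusted p = 0.57). Of 8 genes induced by low oxygen, 0 passed with limma, and their fold changes lay between -0.51 and 0.25, with a median of -0.15. The lowest of them missed the threshold narrowly (limma adjusted p = 0.1001). CrT-/y animals were all below CrT+/y animals for 2 of the 8, set beside 15.0% of all tested genes. *Bnip3*, a mitochondrial protein of this response, was among the 2 and had a fold change of -0.13 (limma adjusted p = 0.17). Summed over the 9 genes listed, the groups were apart (170.8 to 176.5 FPKM in CrT-/y animals, 192.2 to 193.7 FPKM in CrT+/y animals).

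**Figure D4:**
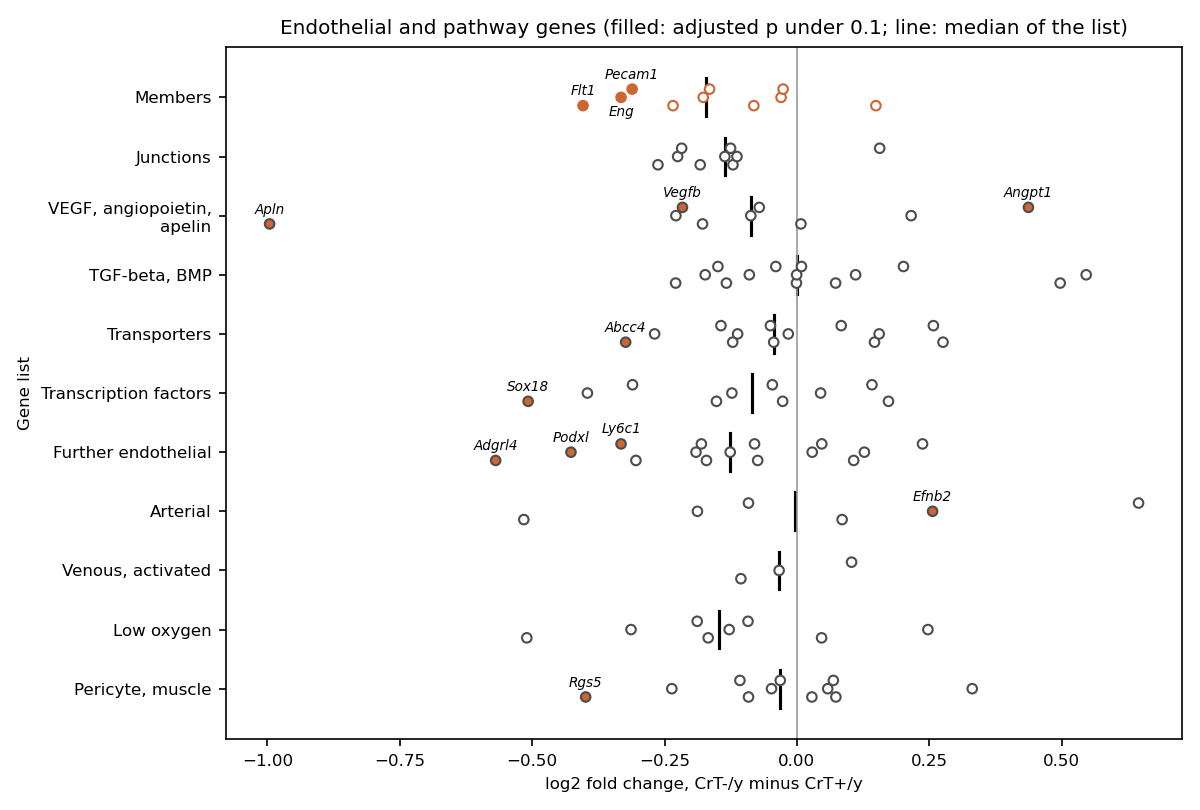
Fold changes (log2 scale, CrT-/y minus CrT+/y) of the tested genes of each list, filled and named where the limma adjusted p was under 0.1, with the median of each list as a vertical bar. *Apln* at -0.996 lies farthest from 0, the medians lie between -0.17 (the 10 genes) and 0, and called genes are on the left of 0 except *Angpt1* and *Efnb2*.

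Markers of other cells in the cortex were read beside these results. Of 11 pericyte and smooth muscle markers tested, 1 was lower. *Rgs5*, a pericyte gene, measured 43.0, 36.1, 34.1 and 36.7 FPKM in CrT-/y mice and 58.8, 48.4 and 42.0 FPKM in CrT+/y mice (fold change -0.40, limma adjusted p = 0.084), with CrT-/y replicate 0 above CrT+/y replicate 3. Its call was kept only without CrT-/y replicate 0 or CrT+/y replicate 3, with limma adjusted p up to 0.216 otherwise. It was also lost under quantile normalization (limma adjusted p = 0.110), upper quartile scaling (0.114), median centring (0.114), the length correction (0.104), moderation without a trend (0.125) and with no filter (0.138). The summed mural markers were between 108.8 and 120.8 FPKM in CrT-/y animals and between 116.8 and 131.2 FPKM in CrT+/y animals. The 5 fibroblast markers all had fold changes above 0 (median 0.28), and 0 passed with limma. Their sums ranged from 19.8 to 26.7 FPKM against 16.0 to 22.7 FPKM.

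Of 4 excitatory neuron markers, 2 were lower, *Neurod6* (-0.42, limma adjusted p = 0.061) and *Nrgn* (-0.37, 0.068), and *Slc17a7* and *Camk2a* did not pass. Each of these calls was lost in 5 of the 7 fits with 1 animal left out, at limma adjusted p up to 0.186, and was kept in 8 of 12 other settings. The neuron sums were 2505 to 2730.2 FPKM in CrT-/y animals and 2708 to 3415 FPKM in CrT+/y animals. Astrocyte markers (0 of 5 passed, sums 329.6 to 384.4 against 335.5 to 392.9 FPKM), microglia markers (0 of 5, 144.5 to 151.2 against 138.4 to 150.4 FPKM) and perivascular macrophage markers (0 of 2 tested of 4, 2.91 to 4.31 against 2.69 to 4.70 FPKM) overlapped between genotypes. For oligodendrocyte markers, 0 of 4 passed, and CrT-/y replicate 3 had the lowest sum, 579.7 FPKM against 786.2 to 1061 FPKM in the other 6 animals. Red blood cell genes summed to 21.1 to 56.3 FPKM against 37.2 to 72.5 FPKM, with 0 of 4 passing, where *Hba-a2* and *Hbb-bs* were listed near 0 in some animals and share sequence with near-identical copies. Of the fenestrated endothelium and choroid plexus genes, 0 of 3 tested passed, but their sum was 396.2 FPKM in CrT+/y replicate 2 against 7.09 to 55.2 FPKM in the other animals, nearly all of it *Ttr*. *Plvap*, the marker of fenestrated endothelium itself, had overlapping groups at 4.09 to 4.92 FPKM against 4.21 to 5.21 FPKM. The part of these other cells in the endothelial results was not tested.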

How the data were processed

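Cortical RNA of 4 CrT-/y and 3 CrT+/y mice was sequenced as paired ends, with groups and replicate numbers taken from the sample descriptions. The authors aligned reads to mm10 with the Tuxedo protocol (the submitters' processing notes name Bowtie and Cuffnorm, versions not given in the sources used here), kept uniquely aligned reads and deposited 1 table of FPKM per gene and animal. These FPKM had been divided by length and by mapped reads before they were deposited, so a count test was not used, and the depth of each library was not estimated here.

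From these values, log2(FPKM + 0.1) of genes averaging 1 FPKM or more was tested with limma (version 3.58.1, R 4.3.3; trended moderation, Benjamini-Hochberg adjustment over 12988 genes, threshold 0.1). The added 0.1 understates fold changes of low genes. Ratios to *Cldn5* were tested with two-sided exact permutation tests. The alternatives changed the pseudocount (to 1 or 0.01), the filter (none, or an average of 5 FPKM), the scaling (upper quartile, median centring or quantile normalization), the moderation (no trend, or array weights) or the model (transcript length correction, replicate block, or both), or left out each animal. For ratios, the mean of *Cldn5* and *Cdh5* was the other denominator. The procedure was tested on simulated data.

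The 10 genes and all lists were chosen with earlier results of these data known. Named are the 10 genes, every gene of another list with an adjusted p under 0.1 (at most 4 a list), the gene of highest mean level in each list, and any gene of lists of 5 or fewer. Of the 24346 symbols, 23310 matched a current symbol of GENCODE M21 and 665 a synonym. Promoters were from RefSeq. Some marker genes of other cells are not reported here. Python 3.11.15 with scipy 1.17.1 was used for the rest.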

Additional observations from a re-analysis of the deposited data

Results flagged for a closer look

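The 4 CrT-/y animals were checked in 73 sets of values (the levels of the named genes and the ratios to *Cldn5*) for an animal far from the others (Dixon's test of the gap over the range). Chance alone marks about 1 in 20 groups. The 3 CrT+/y animals were too few for this test. *Adgrl4* was at 7.60 FPKM in CrT-/y replicate 0, above the 6.06 to 6.08 FPKM of the other CrT-/y animals and still below all CrT+/y animals. *Angpt1* was at 2.06 FPKM in CrT-/y replicate 1, under the 2.49 to 2.56 FPKM of the others. Among markers of other cells, *P2ry12*, a microglia gene, was at 21.5 FPKM in CrT-/y replicate 0. The myelin gene *Mag* was at 29.8 FPKM in CrT-/y replicate 3, under the 43.5 to 45.0 FPKM of the others.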

How the results depend on the processing

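The 3 lower genes of the 10 stayed at 2 or 3 under all other settings of the fit but the replicate block with transcript length correction, which gave 0. With 1 animal left out there were 0 to 4. CrT-/y replicates 1 and 2 and CrT+/y replicate 1 each took the count to 0 when left out, and CrT+/y replicate 3 took it to 4. The 0 higher genes became 1 (*Slco1a4*) under upper quartile scaling. Of the further endothelial and pathway genes, the count of lower ones, 7, was 4 under upper quartile scaling or median centring, 11 with array weights, 3 under the replicate block with length correction and 1 to 18 with 1 animal left out. The count of higher ones, 2, was 1 without a filter, with a mean of at least 5 FPKM or under the replicate block (where *Angpt1* and *Efnb2* did not pass, at 0.157 and 0.105 with limma), 0 under the replicate block with length correction and 0 to 7 with 1 animal left out.

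Over all genes, calls fell from 1318 to 730 without a filter, 576 under the replicate block and 183 with the length correction added, and ranged from 64 (without CrT-/y replicate 1) to 3736 (without CrT+/y replicate 3). The share of higher genes among calls was 28.6%, against 48.8% with quantile normalization, 48.2% with median centring, 61.5% with upper quartile scaling and 42.5% with the length correction. The cause was not tested.

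The fold change of *Tek* was 0.031 under upper quartile scaling, 0.0071 under median centring, 0.017 under the length correction and -0.10 to 0.082 with 1 animal left out. That of *Vwf* was 0.035, 0.011 and 0.044 under the same settings, 0.0059 with array weights, 0.017 under the replicate block, 0.083 with the length correction added and -0.14 to 0.070 with 1 animal left out. The log2 ratio of *Kdr* to *Cldn5* was 0.013 with a pseudocount of 1, 0.023 over the mean of *Cldn5* and *Cdh5* and -0.16 to 0.088 with 1 animal left out. Those of *Cdh5*, *Vwf* and *Abcb1a* ranged over -0.19 to 0.090, -0.063 to 0.27 and -0.066 to 0.22 with 1 animal left out.

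Same-numbered animals of the 2 genotypes did not deviate together from the means of their groups (Pearson's r over genes -0.0781, 0.0460 and -0.0510). These values cannot decide whether the numbers mark pairs, because the mean of each group was taken out first. The labels do not say either, so the numbers were not taken as pairs in the main fit. The replicate block, which leaves CrT-/y replicate 0 without a partner, ended the call of *Pecam1* (adjusted p = 0.117 with limma) and changed no other call of the 10. With the length correction, *Flt1* (0.109) and *Eng* (0.134) were lost as well. Among genes of the other lists, the replicate block alone ended the calls of *Vegfb* (limma adjusted p = 0.153), *Angpt1* (0.157), *Abcc4* (0.223), *Ly6c1* (0.136), *Efnb2* (0.105) and *Nrgn* (0.122). Those of *Apln*, *Sox18*, *Podxl*, *Adgrl4*, *Rgs5* and *Neurod6* were kept under it. With the length correction added, *Podxl* (limma adjusted p = 0.108), *Rgs5* (0.112) and *Neurod6* (0.101) lost theirs, and *Apln*, *Sox18* and *Adgrl4* did not. The depth of each library was not estimated, so its effect on these values was not tested.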
